A study of Rattus norvegicus with 10 samples.

Results

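Genes of complement and blood coagulation were followed in livers of 10 male rats of the outbred Sprague-Dawley strain. There were 5 controls, and 5 rats had short-term exposure to waste water of bulk drug factories. The set was fixed by name, with 20 coagulation and 19 complement genes, and 34 of the 39 had a probe set that names them alone (17 of each kind), out of 14217 genes so represented in the whole series. Each gene was read from the probe set with the highest mean over the 10 arrays. No probe set of the annotation used names F7, F11 or F13b alone, and C2 and Cfb share 4 probe sets that name both, so these 5 were not analysed here. Age, dose, length of exposure and what the controls received are not given in the sources used here. Whole liver was taken, so each value mixes hepatocytes with the other cells of the organ, and fewer cells of a type and less RNA per cell cannot be told apart. The defining hepatocyte markers were high on all arrays, with Alb at 14.99, Ttr at 14.50 and Apoa1 at 14.03 as means of 10 arrays on a log2 scale.

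Coagulation is a chain of serine proteases, made mostly by hepatocytes and circulated as inactive precursors, that ends with thrombin cutting fibrinogen into fibrin; antithrombin and other serpins restrain it, and plasmin dissolves the clot. Complement is a related chain of plasma proteases and binding proteins that marks microbes with fragments of C3 and inserts a pore of terminal components into membranes. Liver is the main source of most proteins of both systems, and fibrinogen and C3 are known as acute phase proteins, whose synthesis rises in inflammation.

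The start regions of the fibrinogen genes are shown because the 3 chains are subunits of 1 protein, were among the highest and least variable members, and that of F5 because this gene varied most among the coagulation members. The sequences are from RefSeq (assembly GRCr8), 250 bases before to 50 after the annotated start of each gene, 5′ to 3′ on the gene's own strand. Capitals mark matches on either strand to 4 letter groups. For the hepatocyte factor HNF1 the letters of a partial site, GTTAAT, were searched. For the C/EBP factors they were TTGCNNAA. For the response element of IL-6, which acts through Stat3, its core CTGGGAA was searched. The TATA box was searched as TATAAA. Matches of different groups may overlap.

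Fga, chr2:170671919-170672218, + strand: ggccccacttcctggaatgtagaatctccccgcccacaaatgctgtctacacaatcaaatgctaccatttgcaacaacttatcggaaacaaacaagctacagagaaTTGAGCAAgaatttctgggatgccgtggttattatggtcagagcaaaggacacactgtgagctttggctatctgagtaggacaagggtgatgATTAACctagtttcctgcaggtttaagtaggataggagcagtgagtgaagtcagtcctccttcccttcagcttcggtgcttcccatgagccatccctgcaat
Fgb, chr2:170700826-170701125, - strand: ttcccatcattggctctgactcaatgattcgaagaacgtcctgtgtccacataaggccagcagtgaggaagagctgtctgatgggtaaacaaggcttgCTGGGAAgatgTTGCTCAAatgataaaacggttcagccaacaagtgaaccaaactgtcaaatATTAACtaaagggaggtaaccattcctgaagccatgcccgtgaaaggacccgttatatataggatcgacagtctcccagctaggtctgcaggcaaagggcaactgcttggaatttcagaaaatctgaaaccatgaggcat
Fgg, chr2:170652833-170653132, + strand: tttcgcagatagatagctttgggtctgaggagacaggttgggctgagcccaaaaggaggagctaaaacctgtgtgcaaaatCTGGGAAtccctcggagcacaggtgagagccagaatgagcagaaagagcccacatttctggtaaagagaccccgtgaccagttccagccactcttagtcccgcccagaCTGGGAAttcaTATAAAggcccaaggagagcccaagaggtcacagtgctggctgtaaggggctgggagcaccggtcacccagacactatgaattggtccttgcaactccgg
F5, chr13:79046407-79046706, + strand: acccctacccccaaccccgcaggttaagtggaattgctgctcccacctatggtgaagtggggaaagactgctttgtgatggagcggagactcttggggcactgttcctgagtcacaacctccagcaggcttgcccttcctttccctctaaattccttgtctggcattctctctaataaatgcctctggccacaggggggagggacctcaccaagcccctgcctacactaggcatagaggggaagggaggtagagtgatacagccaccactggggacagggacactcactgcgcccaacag

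Fga and Fgb each held the HNF1 letters and a C/EBP match, with GTTAAT 52 and 90 bases before the start. Fgb also held CTGGGAA 152 bases before the start, and Fgg held it at 169 and at 61 bases, together with TATAAA at 50 bases. None of the 4 letter groups occurred in the F5 window. Promoter windows were in the table for 30 of the 39 genes. GTTAAT was found in 10 of these 30 (33.3%), against 7.45% of all 33469 windows of that length, TTGCNNAA in 10 (33.3%, against 10.6%) and CTGGGAA in 8 (26.7%, against 11.3%). TATAAA was found in 2 (6.67%, against 14.2%), which were C6 and Fgg. Complement and coagulation windows held GTTAAT in like shares, 4 of 13 and 6 of 17, the others being F2, F13b, Plg, Proc, C4bpa, C4bpb, C5 and C8a. These are matches of letters in a window and do not show binding.

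Nearly all members read near the top of the arrays' scale. The median member level was 12.95 for coagulation and 12.53 for complement, against 6.58 for all genes and 13.95 for 30 other secreted liver proteins such as apolipoproteins and inter-alpha-trypsin inhibitor chains. Of the 34 members 32 had a mean of at least 10, and 25 of at least 12. A probe set's value also depends on how well its probes bind, so the order given here is one of array values and not of RNA amounts. The highest gene mean of the table was that of Alb, 14.99, and whether values near the top of the scale are compressed was not tested.

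Among coagulation genes the order began with the fibrinogen chains Fgg at 14.37, Fga at 14.21 and Fgb at 13.99. Antithrombin (Serpinc1, 13.93), plasminogen (Plg, 13.83) and prothrombin (F2, 13.63) came next. Factor IX (F9) read 13.18, heparin cofactor (Serpind1) 13.06, factor XII (F12) 12.95, the fibrinolysis inhibitor Cpb2 12.84 and protein C (Proc) 12.84. Antiplasmin (Serpinf2, 12.26), plasma prekallikrein (Klkb1, 12.15), factor X (F10, 12.14) and Serpina10, an inhibitor of activated factor X (11.98), lay close together. The cofactors protein S (Pros1, 11.14) and factor V (F5, 10.54) closed the list.

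Among complement genes C3 (14.34), the central component, and vitronectin (Vtn, 14.24), which blocks the terminal pore and also binds a plasminogen activator inhibitor, read highest. The protease factor I (Cfi, 13.48), C9 (13.36), which forms the wall of the pore, the inhibitor of the starting proteases Serping1 (13.35) and C4bpa (13.28), a cofactor of factor I, followed. The chains of the pore component C8 read 12.94 (C8b), 12.88 (C8g) and 12.35 (C8a). The lectin pathway was spread out, with the mannose-binding lectins at 12.53 (Mbl2) and 11.43 (Mbl1) and their proteases at 11.47 (Masp2) and 9.37 (Masp1). C4bpb, the other chain of the C4bpa product, read 12.12, C5 10.87, C6 10.16 and Cfd, factor D, a protease best known from fat tissue, 7.06. Of the 33 steps between neighbours in the joint order, 21 were larger than the larger of both SDs between animals and 12 were not. The steps that were not beyond it included those from C8a through Serpinf2, Klkb1, F10 and C4bpb to Serpina10, from C9 through Serping1 to C4bpa, and from Vtn to Fga.

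**Figure D1:**
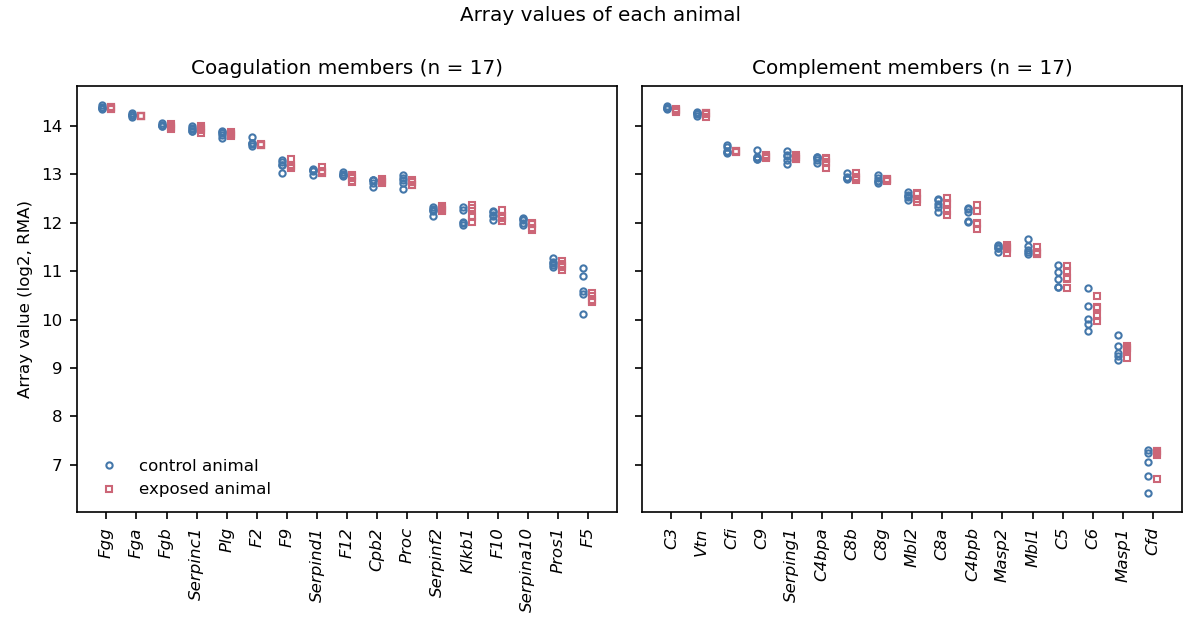
Array values (log2) of the 17 coagulation and 17 complement members in each control animal (circles) and exposed animal (squares), ordered by level. Points of both groups overlap in every gene, and F5, C6, C5 and Cfd are the most scattered.

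The spread between animals of a group was small for most members and set a few apart. The pooled SD, taken within the groups, had a median of 0.0496 on the log2 scale over coagulation members and 0.0687 over complement members. It was 0.127 over all genes, 0.100 over 1280 genes with a mean of at least 10 and 0.0464 over the other secreted proteins. Within 5 classes of level, 22 of the 34 members had a smaller SD than the median gene of their class. The least variable were Fgg, with an SD of 0.0235, and C3, with 0.0239, and the most variable were Cfd (0.313), C6 (0.284), F5 (0.265) and C5 (0.188). Spread fell with level across all genes, from a median SD of 0.106 at levels of 10 to 12 to 0.0296 at 14 and above, where the 4 members Fgg, C3, Vtn and Fga had a median of 0.0241.

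F5, the cofactor of activated factor X, read 10.11, 10.53, 10.59, 11.06 and 10.90 in controls 1 to 5 and 10.49, 10.41, 10.55, 10.37 and 10.38 in exposed animals 1 to 5. Controls thus ran from the lowest to the highest value of all 10 animals, while the exposed animals stayed between 10.37 and 10.55. C6, which the terminal pathway adds to C5, read 9.76, 10.003, 10.64, 10.27 and 9.90 in controls 1 to 5 and 10.23, 10.49, 10.26, 10.07 and 9.97 in exposed animals 1 to 5. Its highest and lowest values were both in controls, in animals 3 and 1. C5, from which the terminal pathway starts, read 10.66, 10.99, 10.83, 10.67 and 11.13 in controls 1 to 5 and 11, 10.65, 11.10, 10.85 and 10.84 in exposed animals 1 to 5. Both groups covered nearly the same range, 10.66 to 11.13 and 10.65 to 11.10.

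A larger SD in controls than in exposed animals was found for 20 of 34 members, 11 of 17 for coagulation and 9 of 17 for complement. The share, 58.8%, is near the 56.3% of all genes and below the 66.0% of genes with a mean of at least 10. Among the members with the largest ratio were Cfi, with an SD of 0.0681 in controls and 0.00876 in exposed animals, Fga (0.0341 and 0.00484), C8g (0.0684 and 0.0119), F2 (0.0675 and 0.0122) and F5 (0.366 and 0.0796). No test of these ratios was made. Without control 5 the counts were 9 of 17 and 8 of 17, beside 52% of all genes and 61.6% of genes with a mean of at least 10. Without exposed 1, and also without exposed 3, it was 24 of 34 members (70.6%), beside 57.9% and 59.2% of all genes. Among genes with a mean of at least 10 the shares were 66.5% and 67.3%.

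**Figure D2:**
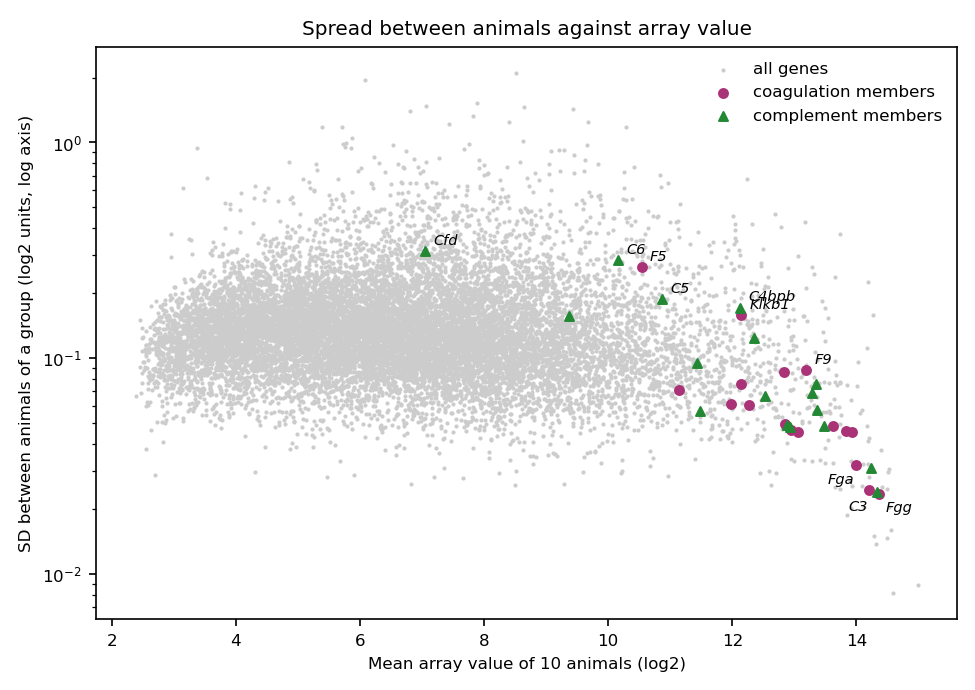
Pooled SD between animals of a group (log axis, log2 units) against the mean array value of 10 animals (log2) for all 14217 genes (grey), coagulation members (circles) and complement members (triangles). Spread falls towards the top of the scale, where Fgg, Fga and C3 lie, and Cfd, C6, F5 and C5 stand above most members.

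Exposed livers were compared with control livers to see whether the effluent changed these genes. No member changed by the test. Limma, a linear model that shares information on spread across all probe sets, gave adjusted p values of 0.880 to 0.999 over the 34 members (Benjamini-Hochberg over 31042 probe sets, threshold 0.05), and 0 of 31042 probe sets (0%) were called. At an unadjusted limma p under 0.05 there were 0 of 34 members, against 5.20% of all genes. Among genes with a mean of at least 10, where most members lie, it was 32 of 1280. Limma also raised the SE of members of low spread, such as C3 (SD 0.0239, SE 0.049), which makes a small p harder to reach. The groups overlapped in 34 of 34 members, while 0.788% of all genes had groups that did not overlap. The 95% interval left out a change of 1.5-fold in either direction for 34 of 34 members, and one of 1.1-fold for 12. The widest intervals were those of F5, C6 and Cfd.

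Values were lower in exposed livers for 11 of 17 coagulation and 14 of 17 complement members, with median differences (exposed minus control, log2) of -0.017 and -0.0078. Members higher in exposed livers were thus 6 and 3, against 49.1% of all genes and 40.3% of genes with a mean of at least 10, whose median differences were -0.0021 and -0.013. The count of complement members was 7 after quantile normalization, 6 with RNA quality as a covariate and 5 with array weights. It was also 5 without control 2, exposed 1 or exposed 3, 6 without control 3 or 5 and 7 without exposed 4. The count of coagulation members was 2 after centring on array medians and 3 without control 1.

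Fibrinogen is built from 3 chains whose genes lie next to each other in the genome. Fga read 14.22, 14.26, 14.21, 14.22 and 14.17 in controls 1 to 5 and 14.20, 14.20, 14.19, 14.20 and 14.20 in exposed animals 1 to 5. The exposed animals lay between 14.19 and 14.20, inside the range of the controls. Fgb read 14.01, 14.06, 14.01, 13.99 and 13.99 in controls 1 to 5 and 13.96, 13.94, 13.95, 13.99 and 14.02 in exposed animals 1 to 5. Fgg read 14.37, 14.41, 14.35, 14.35 and 14.34 in controls 1 to 5 and 14.38, 14.35, 14.35, 14.38 and 14.36 in exposed animals 1 to 5. Control 2 was the highest animal for all 3 chains, and the groups overlapped in each. The differences were -0.017 (95% interval -0.12 to 0.089) for Fga, -0.037 (95% interval -0.15 to 0.071) for Fgb and -0.0036 (95% interval -0.11 to 0.10) for Fgg, with limma adjusted p values of 0.974, 0.945 and 0.997.

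The vitamin K-dependent proteins, which need a carboxylated domain to bind membranes, did not pass the test. F2, the precursor of thrombin, differed by -0.045 ± 0.053 (SE), F9 by 0.0050 ± 0.065, F10 by -0.032 ± 0.061 and Proc, whose product shuts off factor V, by -0.028 ± 0.064. Pros1, the cofactor of Proc, read 11.12, 11.07, 11.19, 11.17 and 11.26 in controls 1 to 5 and 11.11, 11.20, 11.09, 11.14 and 11.01 in exposed animals 1 to 5. Exposed 5 was the lowest and control 5 the highest animal, and the difference was -0.054 (95% interval -0.18 to 0.074) with a limma adjusted p of 0.932. F5 differed by -0.20 (95% interval -0.51 to 0.11), the largest difference of the set, with a limma adjusted p of 0.894. It was -0.33 without control 1, where it passed an unadjusted p of 0.05 (limma adjusted p 0.746), -0.093 without control 4 and -0.056 with RNA quality as a covariate.

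The contact system, which starts clotting on foreign surfaces, was read through F12 and Klkb1. F12 read 12.97, 12.98, 12.97, 13.01 and 13.04 in controls 1 to 5 and 12.92, 12.97, 12.84, 12.97 and 12.87 in exposed animals 1 to 5. All 5 controls were at or above 12.97, and exposed 3 and 5 were the lowest, but exposed 2 and 4 lay at the level of the lower controls. The difference was -0.079 (95% interval -0.19 to 0.035) with a limma adjusted p of 0.894. Klkb1, which F12 activates, differed by 0.084 (95% interval -0.12 to 0.28).

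Among the inhibitors Serpina10 had the smallest unadjusted p of all members, 0.112. It read 12.09, 12.05, 12.07, 11.95 and 11.99 in controls 1 to 5 and 11.90, 11.97, 11.84, 11.97 and 11.996 in exposed animals 1 to 5. Controls 1 to 3 were the highest animals and exposed 3 and 1 the lowest, while controls 4 and 5 lay among the exposed. The difference was -0.097 (95% interval -0.22 to 0.026), a ratio of 0.935, with a limma adjusted p of 0.880. Serpinc1, the main inhibitor of thrombin, differed by 0.00023 ± 0.053 (SE), Serpind1 by 0.0010 ± 0.053, and the regulators of fibrinolysis Plg, Serpinf2 and Cpb2 by -0.0099 ± 0.053, 0.034 ± 0.056 and 0.019 ± 0.053. The signs of Serpinc1, Serpind1, F9 and Cpb2 turned after centring on array medians. Serpind1 read 12.99, 13.08, 13.07, 13.06 and 13.10 in controls 1 to 5 and 13.15, 13.03, 13.04, 13.03 and 13.06 in exposed animals 1 to 5. Exposed 1 was the highest and control 1 the lowest of all 10 animals.

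Of the complement members C3 was among the steadiest. It read 14.35, 14.35, 14.35, 14.37 and 14.39 in controls 1 to 5 and 14.27, 14.35, 14.32, 14.32 and 14.30 in exposed animals 1 to 5. All 5 controls lay at 14.35 or above and 4 of the exposed animals below, with exposed 2 just inside the control range. The difference was -0.050 (95% interval -0.16 to 0.055), a ratio of 0.966, with a limma adjusted p of 0.924. The SE of 0.049 is larger than the animals' own spread of 0.0239 implies, since limma draws low variances towards a common value, and with a prior that follows the level the SE was 0.035 and the adjusted p 0.912.

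The terminal components differed by 0.031 ± 0.11 for C5 (SE), 0.087 ± 0.15 for C6, -0.039 ± 0.079 for C8a, -0.0064 ± 0.053 for C8b, -0.0030 ± 0.053 for C8g and -0.0027 ± 0.055 for C9. C8b read 12.93, 13.02, 12.91, 12.93 and 12.90 in controls 1 to 5 and 13.01, 12.94, 12.91, 12.88 and 12.93 in exposed animals 1 to 5. Control 2 and exposed 1 were its highest animals. C9 read 13.31, 13.35, 13.35, 13.31 and 13.50 in controls 1 to 5 and 13.36, 13.38, 13.33, 13.35 and 13.38 in exposed animals 1 to 5. Control 5, which also had the highest 3'/5' ratio of control probe sets (log2 0.735), was above all the others, and the remaining 9 lay between 13.31 and 13.38.

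In the lectin pathway, which starts complement on microbial sugars, Mbl1 read 11.51, 11.39, 11.65, 11.43 and 11.35 in controls 1 to 5 and 11.50, 11.39, 11.38, 11.36 and 11.36 in exposed animals 1 to 5. Control 3 was the highest, and exposed 1 stood above the other exposed animals, which lay between 11.36 and 11.39. The difference was -0.069 (95% interval -0.21 to 0.077) with a limma adjusted p of 0.926, and Mbl2 differed by -0.025 ± 0.058 (SE). Masp1, a protease bound to these lectins, read 9.25, 9.30, 9.68, 9.45 and 9.17 in controls 1 to 5 and 9.41, 9.40, 9.20, 9.45 and 9.38 in exposed animals 1 to 5. Exposed 3 was the lowest of its group, control 5 the lowest and control 3 the highest of all. Masp1 differed by -0.0024 ± 0.092 and Masp2 by -0.0078 ± 0.055.

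The regulators in plasma were read through C4bpa, C4bpb, Cfi, Serping1 and Vtn. C4bpa read 13.34, 13.36, 13.29, 13.33 and 13.22 in controls 1 to 5 and 13.34, 13.31, 13.13, 13.24 and 13.24 in exposed animals 1 to 5. Exposed 3 and control 5 were the lowest animals of their groups. C4bpa differed by -0.056 (95% interval -0.18 to 0.071) with a limma adjusted p of 0.928, and its partner chain C4bpb by -0.082 (95% interval -0.30 to 0.13). Cfi differed by -0.036 ± 0.053 (SE), Serping1 by -0.0038 ± 0.061 and Vtn by -0.013 ± 0.050.

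**Figure D3:**
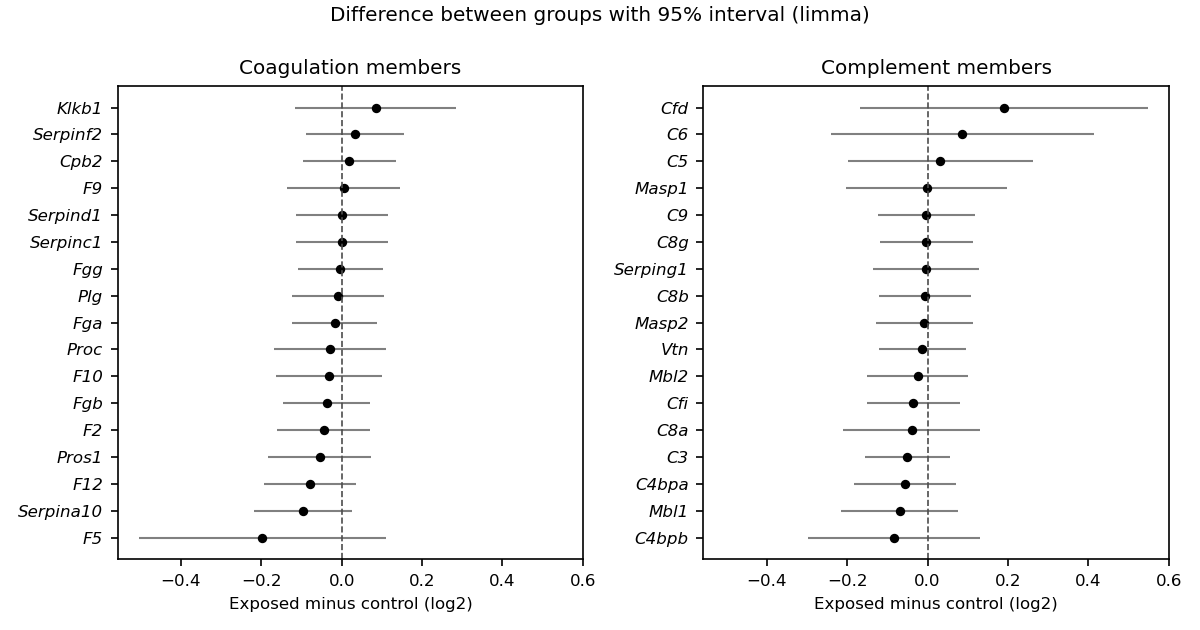
Difference between exposed and control livers (log2, points) with its 95% interval from limma (bars) for the 17 coagulation and 17 complement members, ordered by size. All 34 intervals include 0, and those of F5, C6 and Cfd are the widest.

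Cfd had the lowest level and the largest spread of all members. It read 7.30, 7.25, 7.06, 6.78 and 6.42 in controls 1 to 5 and 7.25, 7.21, 6.71, 7.30 and 7.30 in exposed animals 1 to 5. Control 5, exposed 3 and control 4 were low, and the other animals lay between 7.06 and 7.30. The difference was 0.19 (95% interval -0.17 to 0.55) with a limma adjusted p of 0.913. The animals with low Cfd also read low for 8 markers of macrophages and Kupffer cells, the macrophages of liver. The mean level of these markers was 8.03 in control 5, 8.35 in exposed 3 and 8.64 in control 4, and 9.03 to 9.36 in the other animals. With group means removed, Cfd followed it with r = 0.940 over 10 animals (exact permutation p = 0.00632, adjusted 0.289 over 340 relations) and rho = 0.661 (p = 0.0822, adjusted 0.647). Without control 5 and exposed 3, r was 0.700. Cfd was not alone, as Fga, C4bpa, Serpina10 and Serpinc1 followed these markers at an unadjusted exact permutation p under 0.05. Their r values were 0.77, 0.77, 0.75 and 0.72. Plg ran opposite to the macrophage markers at that p (r = -0.73), and none of these relations passed the adjustment. The mean of 5 lymphocyte markers, 4.82 to 5.16 in controls and 4.90 to 5.20 in exposed animals, was also lowest in control 5 within its group and in exposed 3 within its own. Cfd and this list had r = 0.945 (exact permutation p = 0.00250, adjusted 0.289) and rho = 0.770 (p = 0.0242, adjusted 0.631). Cfd and 2 neutrophil markers had r = 0.786 (exact permutation p = 0.00618, adjusted 0.289), and 0.448 without control 5 and exposed 3. The 5 lymphocyte and 2 neutrophil markers all read below the median gene, at 4.477 to 5.779 and 4.665 to 5.842. The smallest p of all these relations was that of Plg with the lymphocyte markers, which ran in opposite directions with r = -0.873 (exact permutation p = 0.00167, adjusted 0.289) and rho = -0.927 (p = 0.00111, adjusted 0.378). F9 and F5 also ran opposite to that list, with r = -0.853 and -0.758 (exact permutation adjusted p = 0.289 for each). C4bpa, Serpina10 and Masp2 rose with it, with r = 0.80, 0.79 and 0.69 (exact permutation adjusted p = 0.316, 0.316 and 0.503). Cfd ran opposite to the mean of 8 hepatocyte markers, with r = -0.748 (exact permutation p = 0.0283, adjusted 0.372), and -0.713 without controls 1 and 4. Plg, F9 and F5 rose with that mean, with r = 0.788, 0.787 and 0.764 (exact permutation adjusted p = 0.354, 0.293 and 0.316). The 3'/5' ratio of control probe sets (log2), a sign of RNA quality, rose steadily from control 1 to control 5. It read 0.51, 0.58, 0.62, 0.63 and 0.73, and Cfd and the lymphocyte markers fell in that order, while Plg rose. In exposed animals 1 to 5 it read 0.55, 0.60, 0.58, 0.59 and 0.49, without such an order. The part of RNA quality in these relations was not tested. The relations of members with 10 lists of cell type markers were computed after the values were seen. Of these 340 relations 0 passed the adjustment, with 33 (9.71%) at an unadjusted p under 0.05. No share over all genes is given beside that count, and all relations rest on the same 10 animals.

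Adipocyte markers, of which 4 besides Cfd were measured, also all read below the median gene. Their means were 4.42 for Adipoq, 4.93 for Plin1, 5.75 for Fabp4 and 4.27 for Lep. The mean of these 4 markers was 4.66 to 4.99 in controls and 4.70 to 4.97 in exposed animals. It was 4.82 in control 5 and 4.89 in exposed 3, within the range of the others. The macrophage markers were higher in exposed livers for 8 of 8 members, against 49.1% of all genes. The differences were 0.046 to 0.36, and none was called. Mean levels were 8.03 to 9.28 in controls, lowest in control 5, and 8.35 to 9.36 in exposed animals. All 8 were read in the same 10 animals, so they are not 8 separate observations. The part of macrophages in the values of Cfd was not tested.

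**Figure D4:**
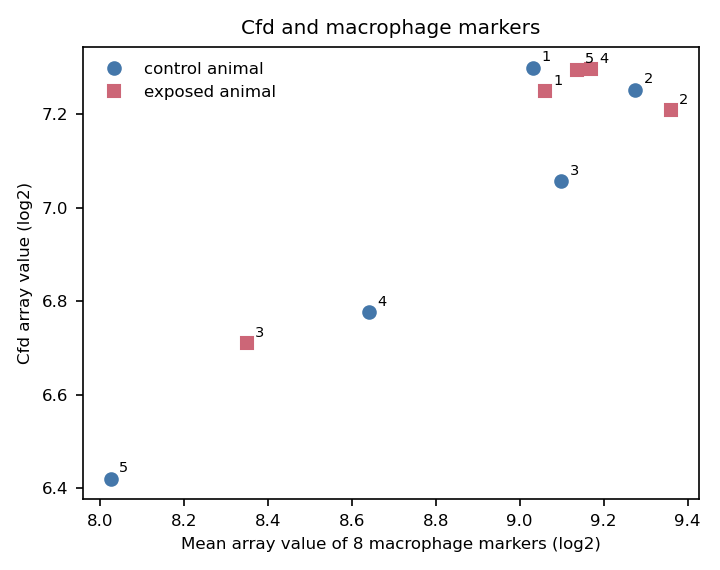
Cfd array value (log2) against the mean array value of 8 macrophage and Kupffer cell markers (log2) in control (circles) and exposed animals (squares), numbered by animal. Control 5 and exposed 3 lie lowest on both axes.

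Variation shared between members was looked for across the 10 animals, with group means removed. Strong correlations were about as common as among other genes of high level. The median correlation over pairs was 0.033 for coagulation, 0.0062 for complement and 0.069 between both, against 0.0003 over all pairs of genes and 0.035 over pairs of genes with a mean of at least 10. A correlation of at least 0.6 was found in 9 of 136 coagulation pairs (6.62%), 13 of 136 complement pairs (9.56%) and 25 of 289 pairs between them (8.65%). The same was true of 5.49% of all pairs of genes and 8.39% of pairs of genes with a mean of at least 10. Of 561 pairs of members 50 had an unadjusted exact permutation p under 0.05 for Pearson's r, and 0 passed the adjustment over these pairs, for r or for Spearman's rho. No share of all pairs of genes at that p is given beside the 50. All pairs share the same 10 arrays and their normalization.

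Partners in a complex gave some of the higher correlations. The fibrinogen chains gave r values of 0.813 for Fga with Fgg, 0.669 for Fgb with Fgg and 0.585 for Fga with Fgb. Fga and Fgg had r = 0.813 (exact permutation p = 0.0125, adjusted 0.395) and rho = 0.782 (p = 0.0184, adjusted 0.414), with r = 0.674 without controls 2 and 5. The chains of C4b-binding protein, C4bpa and C4bpb, had r = 0.767 (exact permutation p = 0.0215, adjusted 0.395) and rho = 0.794 (p = 0.0192, adjusted 0.414), with r = 0.958 without control 5 and exposed 3. Proc and its cofactor Pros1 had r = 0.711 (exact permutation p = 0.0269, adjusted 0.443) and rho = 0.770 (p = 0.0189, adjusted 0.414).

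The chains of C8 gave correlations of both signs. C8a and C8b, which are neighbouring genes, had r = 0.650 (exact permutation p = 0.0610), but C8g had -0.608 with C8b and -0.159 with C8a. Masp1 and Masp2 had 0.398, Mbl1 and Mbl2 -0.135, and C6 and C9 -0.164. Of the 11 partner pairs measured 7 had an r above 0, against 307 of all 561 pairs of members, and none passed the adjustment over the 561 pairs.

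The 5 highest correlations were not between partners. Serpinf2 and Mbl2 had r = 0.909 (exact permutation p = 0.000556, adjusted 0.127) and rho = 0.903 (p = 0.00229, adjusted 0.357), with r = 0.875 without controls 1 and 2. F5 and F9 had r = 0.896 (exact permutation p = 0.000556, adjusted 0.127) and rho = 0.733 (p = 0.00562, adjusted 0.357), with r = 0.697 without controls 1 and 4. F5 with Serping1 gave r = 0.891, but 0.467 without the same controls, Serpina10 with Masp2 gave 0.885 and F9 with Serping1 0.882. Plg, F9, F5, Cfd, C4bpa, Serpina10 and Masp2 are the members whose relations with the lymphocyte markers are given above. The part of those markers in these pairs was not tested. The lowest values were -0.839 for F9 with Serpina10, -0.830 for Fgg with Proc and -0.823 for Plg with Cfd. Adjusted exact permutation p values of the 5 highest and 3 lowest pairs were between 0.127 and 0.395 for r, and between 0.195 and 0.658 for rho.

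**Figure D5:**
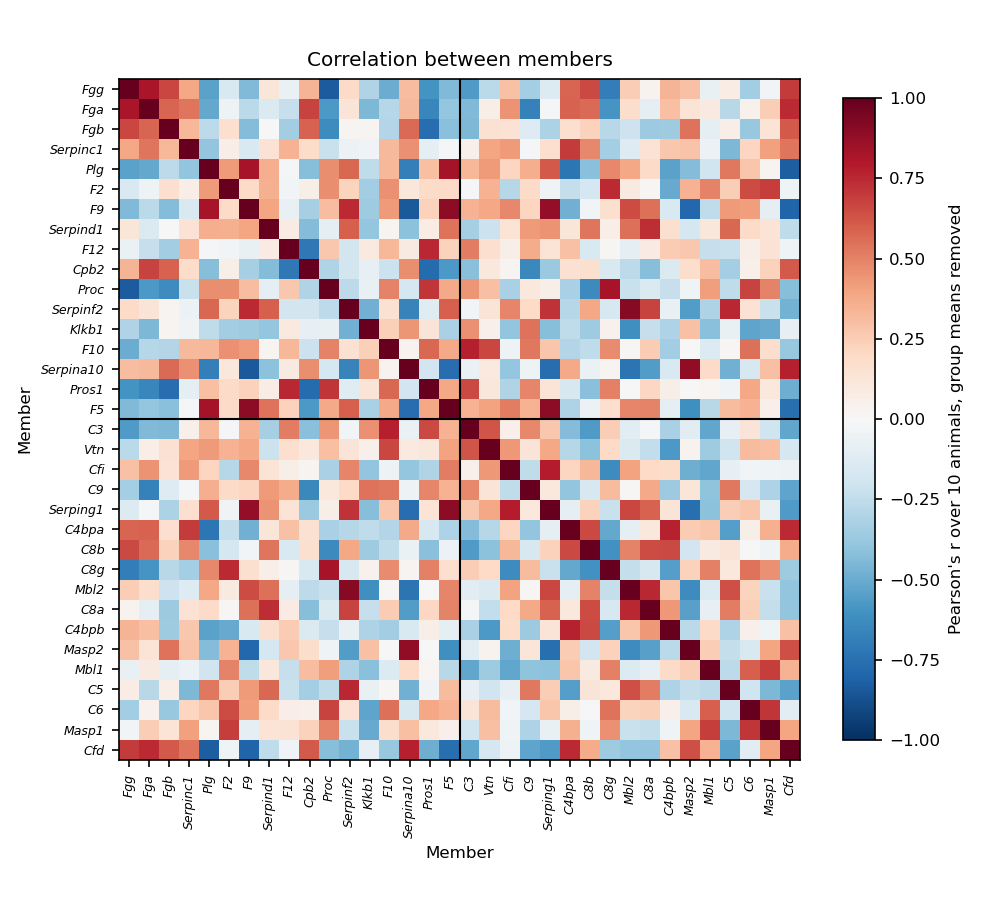
Pearson's r over 10 animals, with group means removed, between all 34 members, coagulation first and complement after the black lines, each ordered by level. The fibrinogen chains at the upper left are positive with each other, and positive and negative values mix in the rest of both lists.

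Of the members 5 had more than 1 probe set. The second probe set of Fga read 12.36 and differed by -0.064, with exposed 2 lowest at 12.02 and control 2 highest at 12.57. The others of Fgb read 4.17 and 3.63 in controls, far below its main one, and differed by 0.068 and -0.029. The second Mbl2 probe set differed by 0.026, against -0.025 for the main one. The others of Masp1, at 8.14 and 6.97 in controls, differed by 0.017 and -0.18. The others of Masp2, at 11.33 and 4.40 in controls, differed by 0.045 and -0.17. Signs thus differed between probe sets of Mbl2, Masp1 and Masp2 that read well above the low end of the scale, while those of Fgb differed only through a probe set near it.

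Genes of the same pathways that are not members gave no call either. Of 18 other complement genes measured 14 were higher in exposed livers, against 49.1% of all genes. The median difference of the list was 0.065, and 0 passed an unadjusted p of 0.05. Of the 18 genes 5 read below the median gene. The list includes the chains of C1q and the ficolin Fcna, which macrophages make, and the list shares C1q chains with the macrophage markers, whose values are given above. Cd55, a membrane regulator of complement, differed by 0.094 ± 0.061 (SE) at a low level of 3.12, and Fcna by 0.27 ± 0.20 at 8.43. Of 19 other coagulation genes 8 were higher and 11 lower, with a median of -0.0072. Serpina5, an inhibitor of activated protein C, differed by 0.32 ± 0.13 at a low level of 4.88 (unadjusted limma p 0.0256, adjusted 0.879) and F13a1, a chain of the enzyme that links fibrin, by -0.17 ± 0.082.

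Among 17 genes of vitamin K use and hepatic regulators 13 were lower in exposed livers, with a median of -0.066. The share higher was 23.5%, against 49.1% of all genes and 37.1% of genes with a mean above that of the median gene. The median level of the list was 9.14. The control mean of Stat3, which carries the signal of IL-6 to acute phase genes, was 9.30 with an SD of 0.22, and the exposed mean 8.99 with an SD of 0.10 (n = 5 each). Stat3 thus differed by -0.31 (SE 0.098; unadjusted limma p 0.00711, adjusted 0.879). The receptor chain Il6r differed by -0.30 ± 0.16. The other genes of this route and the C/EBP factors in the list, named here after their values were seen, had smaller differences, with Il6st, the signalling receptor chain, at -0.058 ± 0.17, the feedback inhibitor Socs3 at -0.083 ± 0.079, Cebpd at -0.066 ± 0.10, Cebpb at 0.056 ± 0.23 and Cebpa at 0.11 ± 0.22. The acute phase members Fga, Fgb, Fgg and C3 differed by -0.0036 to -0.050 beside these. Of 30 other secreted liver proteins 23 were lower, with a median of -0.0082, led by Agt, angiotensinogen, at -0.097 ± 0.054 and Apob at -0.14 ± 0.091. The share higher was 23.3%, against 40.3% of genes with a mean of at least 10.

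As a sign of RNA quality, the log2 ratio between 3' and 5' control probe sets averaged 0.614 in controls (SD 0.0827) and 0.563 in the exposed (SD 0.0443), with a two-sided exact permutation p of 0.278 for n = 5 against 5. Arrays resembled each other, with correlations of 0.991 to 0.996 and medians of 5.43 to 5.49. The labels number the arrays as replicates of a group, and each array was taken as 1 rat. Limma p-values rest on a spread drawn towards that of all probe sets. For members of low spread they thus do not measure the spread between these animals alone.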

How the data were processed

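Liver RNA was read on Affymetrix 3' arrays, and the authors deposited log2 values for each probe set. The submitters' processing notes name RMA and R 2.8.1. RMA corrects background and normalizes between arrays, which removes shifts shared by most genes. Of 31099 probe sets 57 control sets were left out. Platform annotation named 1 gene for 20826 probe sets, several for 436 and none for 9780, and 20758 were found by Entrez number in RefSeq's table for GRCr8. Exposed and control were compared with limma 3.58.1 in R 4.3.3 (lmFit, eBayes, two-sided, Benjamini-Hochberg), fitted on all 31042 probe sets and tested on simulated data. Correlations across animals used values with group means removed and a two-sided exact permutation test over 14400 orders within groups, whose smallest p is 6.94e-05, adjusted over all pairs of members. The members and lists were chosen with earlier results of these data known. Serping1 and Vtn, which act in both systems, were counted with complement. Values of every array are given for the fibrinogen chains, the 4 members per system with the smallest p, those of largest or smallest spread and those with an animal apart. Relations with marker lists, the classes of level and the SDs by group were added after seeing the data. Alternatives were quantile normalization, centring, dropping low values, a replicate block, array weights, a trended prior, RNA quality, all probe sets of a gene and leaving out each array.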

Additional observations from a re-analysis of the deposited data

Results flagged for a closer look

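In 6 of the 68 groups of 5 values of the members, the highest or lowest animal was separated from its neighbour by an unusually large part of the group's range (Dixon's test), where chance gives about 1 in 20, or 3.4. Exposed 3 read 6.711 for Cfd (others 7.209 to 7.297) and 9.20 for Masp1 (9.38 to 9.448). Exposed 1 read 13.15 for Serpind1 (13.03 to 13.06) and 11.50 for Mbl1 (11.36 to 11.39). Control 2 read 13.02 for C8b (12.90 to 12.93) and control 5 read 13.50 for C9 (13.31 to 13.35).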

How the results depend on the processing

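All alternatives counted here were planned. The 0 members called held under every alternative run, and the 0 probe sets called held except without exposed 1 (leave-one-out 0 to 1). The labels do not say whether the replicate numbers pair the animals. Deviations of same-numbered animals correlated between -0.0696 and 0.0938, and 0 of 5 controls matched its own number best. Little variation was thus shared by number, which cannot show how the animals were handled. With the replicate block 0 probe sets, 0 members and 0 members at an unadjusted p under 0.05 were called. At that unadjusted p there was 1 member after centring (Serpina10, -0.12) and 0 to 1 without single arrays (F5 without control 1, -0.33). Coagulation members higher in exposed livers numbered 2 after centring and 3 to 7 without single arrays. Complement members numbered 7 after quantile normalization, 5 with array weights, 6 with RNA quality as a covariate and 2 to 7 without single arrays. The median correlation of complement pairs was 0.102 with the mean of all probe sets of a gene. The cause of these moves was not tested. Signs turned for small differences. After centring these were F9 -0.018, Serpinc1 -0.023, Serpind1 -0.022, Cpb2 -0.0037. After quantile normalization they were Plg 0.012, C8g 0.0034, Masp1 0.027, Masp2 0.011, Serping1 0.011. With array weights they were F9 -0.00068, C8g 0.0026, C9 0.0045. With RNA quality as a covariate they were F10 0.0072, Plg 0.014, Serpinc1 -0.0045, Proc 0.0062, Cpb2 -0.012, C8g 0.013, C9 0.027, Serping1 0.025. With the mean of all probe sets they were Fgb 0.00036, Mbl2 0.00043. Leaving out single arrays turned the sign of 17 members, with ranges of F9 -0.0359 to 0.0320, Serpinc1 -0.0148 to 0.0204, Serpind1 -0.0201 to 0.0105, C5 -0.0214 to 0.10, C6 -0.00125 to 0.22, Masp2 -0.0276 to 0.0161, Fgg -0.00980 to 0.00848, C8b -0.0260 to 0.0132, Serping1 -0.0387 to 0.0286, Proc -0.0708 to 0.00352, C8g -0.0225 to 0.0220, Masp1 -0.0522 to 0.0742, Plg -0.0303 to 0.00291, Cpb2 -0.00541 to 0.0294, C9 -0.0170 to 0.0313, Vtn -0.0244 to 0.00151, C8a -0.0816 to 0.00626. The number of arrays limits the precision.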
